A study of Mus musculus with 20 samples.

Results

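The clustered protocadherin promoters were taken as every probe on chromosome 18 whose gene symbol begins with Pcdha, Pcdhb or Pcdhg. This gave 58 of the 22480 symbols of the promoter table. As Pcdha4 and Pcdha4-g share the same probe, 57 distinct probes remained, of which 14 belonged to the alpha cluster, 21 to the beta cluster and 22 to the gamma cluster. DNA of spermatozoa from 20 F1 males was analyzed by MBD-sequencing, in which a methyl binding domain captures fragments with methylated CpG and the captured fragments are sequenced. Males were 8 weeks old, wild type and of the C57BL/6J or FVB/N strain, with 5 males in each of 4 groups. Mothers of the DEHP groups were given 300 mg/kg/day of DEHP, a phthalate plasticizer, in corn oil by the oral route from gestation day 9 to 19, and mothers of the control groups were given corn oil only over the same days, so that dosing took place in gestation only. Libraries of DEHP males and of control males were submitted and sequenced separately, each submission with both strains and its own read length, so the effect of treatment cannot be told apart from that of submission, whereas both strains of a treatment are compared within a submission.

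Clustered protocadherins are cell adhesion proteins of the cadherin superfamily that give neurons an individual surface identity. Each variable exon of the alpha and gamma clusters has its own promoter and is spliced to constant exons shared by the cluster, while genes of the beta cluster are intronless. A neuron uses only a few of these promoters. The choice is random, depends on CTCF and cohesin, and is made against promoters that DNA methylation, laid down in the early embryo largely by Dnmt3b, keeps silent. The C-type members (Pcdhac1, Pcdhac2, Pcdhgc3, Pcdhgc4 and Pcdhgc5) are not part of this random choice in most neurons.

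Values are the authors' mean and SD of normalized reads over the 5 libraries of a group, deposited with 1 decimal. Single libraries are not analysed here, hence the depth of each library is unknown and SD is the only measure of error. Males are separate animals, but nothing ties them to litters, and the tests treat them as independent. A read level depends both on methylation and on the number of CG sites in the probe, and is not a percentage of methylation. Sum of the means over all promoters was 226268 normalized reads in C57BL/6J controls, against 141091.6 to 153283 in the other groups. All changes below are therefore log2 differences of (mean + 1), taken relative to the median of all promoters tested. On the deposited scale this median was -0.12 for DEHP minus control for C57BL/6J and 0.37 for FVB/N.

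All 57 probes are on the + strand of chromosome 18 of mm10, between 36928285 and 37819745. Each covers 2200 bp, from 2000 bp upstream to 200 bp downstream of the gene start. Alpha probes span 36928285 to 37144168, beta probes 37262998 to 37513851 and gamma probes 37659945 to 37819745. No 2 distinct probes overlap, and 55 of the 57 hold an exon of the gene they are named for. In 12 probes (5 beta and 7 gamma) the exon of the next protocadherin upstream reaches into the probe. The probe deposited as Pcdhb22 (37511652 to 37513851) lies at the start of Pcdhb21 in the GENCODE annotation, and is called by its deposited name here. For the probe of Pcdha10 (37003320 to 37005519) GENCODE gives the gene start to Pcdha11. Near the start used for the Pcdhac2 probe GENCODE gives no protocadherin start, although the probe holds an exon of Pcdhac2.

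Compared with all promoters, protocadherin probes were poor in GC and in CG sites. Their median GC content was 38.5%, against 48.0% over all 22480 promoters, and their median number of CG sites was 27 against 45. Beta probes had the fewest CG sites with a median of 20, followed by alpha with 29.5 and gamma with 34.5. From 500 bp upstream to 200 bp downstream of the start, the median was 20 CG sites in alpha, 11 in beta and 22 in gamma. C-type Pcdhac2 and Pcdhgc3 held the most CG sites, 77 and 71, and Pcdhb9 the fewest with 6. As family members resemble each other and pairs aligning to several positions were discarded, sampled 51-base sequences were searched in the genome. Of those of a probe 80.6% to 100% were unique, and 30 of 57 probes reached 100%. The lowest values were those of Pcdhgb8 with 80.6% and Pcdhb9 with 88.9%.

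In control sperm, reads at these promoters were few. The median over the 57 probes was 2.1 normalized reads in C57BL/6J controls and 2 in FVB/N controls, where all promoters had a median of 5 and 3. Only 13 of 57 probes for C57BL/6J and 12 of 57 for FVB/N stood above the median of all promoters. The alpha cluster was the lowest, and 0 of its 14 probes exceeded this median in controls of either strain. Median levels in alpha, beta and gamma were 1.25, 3.5 and 3.2 in C57BL/6J controls. In FVB/N controls they were 1.65, 1.9 and 2.35, closer to each other than in C57BL/6J. Per CG site, the order in C57BL/6J controls was beta with a median of 0.174 reads, gamma with 0.0735 and alpha with 0.0352. Over all promoters the median was 0.138 reads per CG site in this group. FVB/N controls gave 0.1 in beta, 0.0585 in gamma and 0.0521 in alpha. Promoters of a cluster are not replicates, thus these medians are a description and no test was made between clusters.

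**Figure D1:**
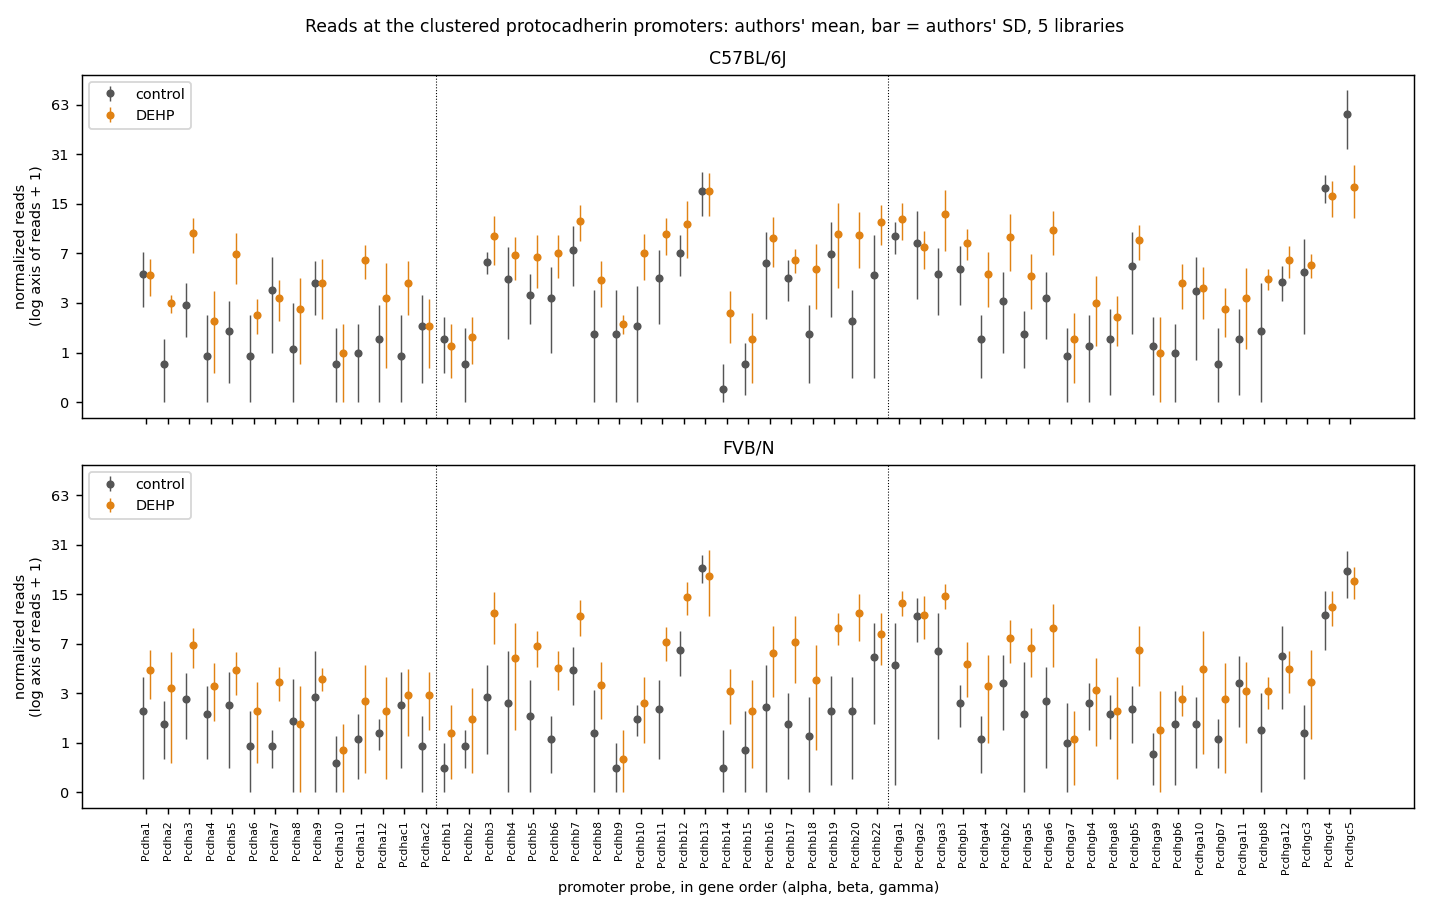
Authors' mean of normalized reads at each of the 57 probes in gene order, on a log axis of reads + 1, in control (grey) and DEHP (orange) libraries of C57BL/6J (top) and FVB/N (bottom). Bars are the authors' SD over 5 libraries, cut at 0, and dotted lines part the alpha, beta and gamma clusters. Pcdhb13, Pcdhgc4 and Pcdhgc5 stand above their neighbours in both strains, and Pcdhgc5 falls from 55.5 to 19.4 reads in C57BL/6J.

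A few promoters stood far above their cluster. Pcdhgc5, the last gene of the gamma cluster, had the highest level, with an authors' mean of 55.5 ± 22.2 (SD, n = 5) in C57BL/6J controls, the 98.5th percentile of all promoters. In C57BL/6J exposed to DEHP its mean was 19.4 ± 7.3, and in FVB/N it was 21.2 ± 7.1 without and 18.1 ± 4.2 with DEHP (SD, n = 5 each). The C57BL/6J controls thus had the highest mean and the largest SD, and the other 3 groups lay within their SD of each other. Its probe holds 1010 bp of the exon of Pcdhgc4, and 22 of its 30 CG sites lie upstream of the region near the start, which holds 8. Pcdhgc4, a C-type isoform needed for survival of cortical interneurons, came next with means of 19 ± 3.9 and 16.8 ± 4.4 in C57BL/6J without and with DEHP, and of 11 ± 4.7 and 12.4 ± 3.2 in FVB/N without and with DEHP. In beta, Pcdhb13 was highest, with 18.3 ± 5.8, 18.2 ± 5.6, 22.2 ± 4.4 and 19.6 ± 8.9 in the same order. The 4 groups of Pcdhb13 overlapped within 1 SD. Second in beta was Pcdhb12, with 7.1 ± 2.3, 11.1 ± 4.6, 6.3 ± 2.2 and 14.4 ± 3.5.

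The alpha cluster had no such promoter. Its highest 2 members were Pcdha3, with 2.9 ± 1.4, 9.6 ± 2.6, 2.7 ± 1.6 and 6.8 ± 2.1, and Pcdha1, with 5 ± 2.2, 4.9 ± 1.5, 2.1 ± 1.9 and 4.5 ± 1.8 (C57BL/6J without and with DEHP, then FVB/N without and with DEHP). Pcdha3 passed the test of DEHP against control in C57BL/6J (log2 difference 1.56, limma adjusted p = 0.000972) and did not in FVB/N (0.71, SE 0.43, adjusted p = 0.416). Pcdha1 passed in neither strain. At the low end, Pcdha10 had means of 0.7, 1, 0.5 and 0.8 and was the only member under the filter of 1 read on average, so 56 of 57 probes were tested. Without this filter the same 20 probes passed the test of DEHP against control in C57BL/6J. Pcdha6 was also low, with 0.9 ± 1.5, 2.4 ± 0.8, 0.9 ± 1.2 and 2.1 ± 1.6. In beta the lowest were Pcdhb1 with means of 1.4, 1.2, 0.4 and 1.3, and Pcdhb9 with 1.6, 2, 0.4 and 0.6. In gamma they were Pcdhga9 with 1.2, 1, 0.7 and 1.4, and Pcdhga7 with 0.9, 1.4, 1 and 1.1. For these low promoters the SD was often as large as the mean. Over the alpha cluster, the median SD was 100% of the mean in C57BL/6J controls and 41.7% in C57BL/6J DEHP.

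**Figure D2:**
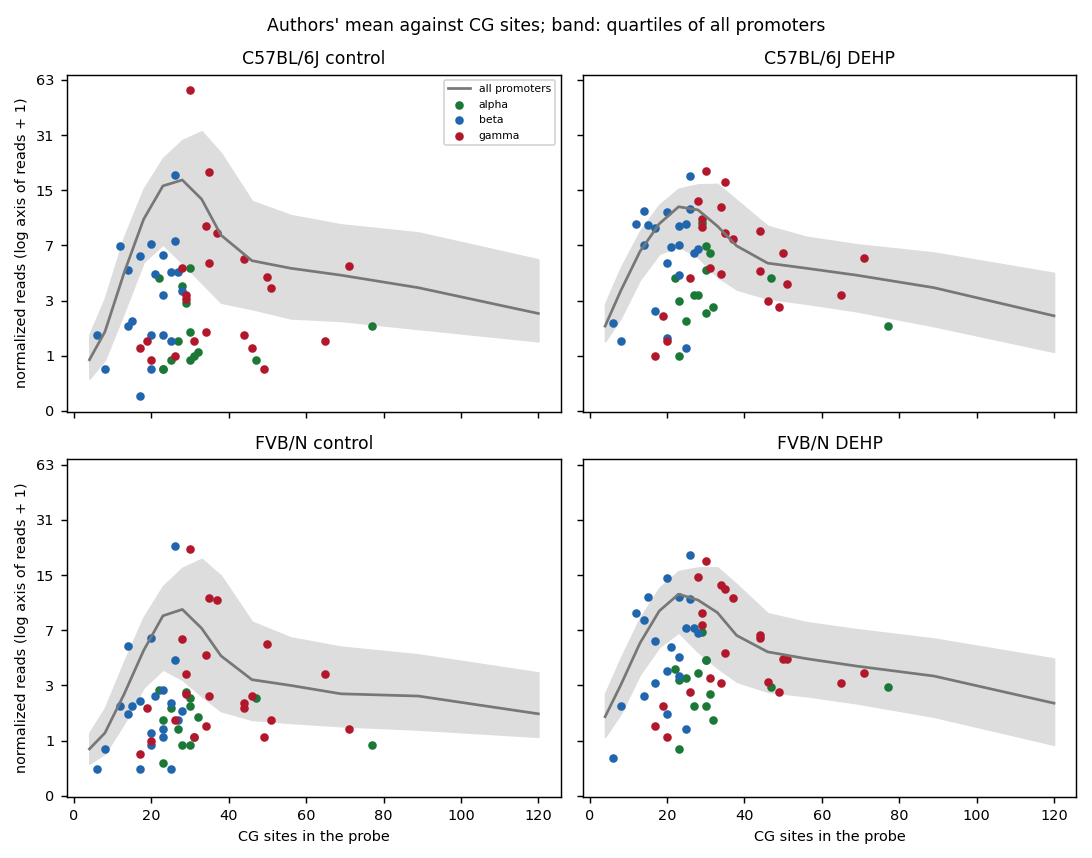
Authors' mean of normalized reads (log axis of reads + 1) against the number of CG sites in the probe, for the 57 protocadherin probes coloured by cluster, with the median (line) and quartiles (band) of all promoters. In both control panels most alpha and many beta points lie under the band, and in the DEHP panels the points move up toward it.

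Promoters around 28 CG sites had a median of 17.2 reads in C57BL/6J controls and 9.4 in FVB/N controls, above the median of each protocadherin cluster. Within the 57 probes, the number of CG sites near the start was hardly related to reads, with a Spearman rho of -0.15 and a Pearson r of -0.12 in C57BL/6J controls, and of -0.06 and -0.12 (rho and r) in FVB/N controls. CG sites further upstream went with higher reads, with a rho of 0.44 and 0.50, and of 0.39 and 0.51 in the DEHP groups of C57BL/6J and FVB/N. Pearson's r was lower, with 0.27 and 0.36 in the controls and 0.24 and 0.26 in the DEHP groups. These are descriptions over 57 probes of the same libraries, with GC content and sequence similarity shared between neighbours. Pcdhga12, with 47 CG sites upstream and 3 near the start, had means of 4.4 and 5.7 in the C57BL/6J and FVB/N controls, above the median of its cluster. Pcdhga11, with 36 upstream, had 1.4 in C57BL/6J controls, under the median of its cluster, and 3.6 in FVB/N controls, above it. The 12 probes holding an upstream exon had a median of 1.85 reads in C57BL/6J controls against 2.9 in the other 45, and 5.3 against 3.7 in FVB/N DEHP, so the order was not the same in all groups.

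Prenatal DEHP was compared with control in each strain to find whether exposure changed methylation at these promoters. In C57BL/6J sperm, reads rose at 20 of 56 protocadherin promoters and fell at 1, Pcdhgc5 (limma's moderated test built from group means and SDs, Benjamini-Hochberg adjusted p under 0.05 over 21242 promoters). Over all promoters tested in this comparison, 5.66% were called higher and 12% lower. The 20 promoters came from each cluster, with 5 of 13 alpha, 7 of 21 beta and 8 of 22 gamma probes. Of the 56 probes, 51 had a log2 difference above the median change of all promoters. Median log2 difference was 0.96 in alpha, 0.69 in beta and 0.64 in gamma, with a median SE of 0.41 for a single probe. Levels rose from a median of 1.25 to 3.3 reads in alpha, from 3.5 to 7 in beta and from 3.2 to 5.4 in gamma, while the median of all promoters went from 5 to 5.3. In the DEHP libraries of C57BL/6J, 0 of 57 probes had a mean under 1 read, compared with 10 of 57 in controls. Over all promoters this share went from 8.8% to 4.66%.

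Pcdha11 showed the largest rise. Its authors' mean was 1 ± 1 in C57BL/6J controls and 6.3 ± 1.7 in C57BL/6J DEHP (SD, n = 5 each), with a log2 difference of 1.98 (SE 0.43, limma adjusted p = 0.000217). It was also the only member whose libraries were shown not to overlap. No value among 5 can lie more than 1.79 SD from their mean, and these bounds were separate for Pcdha11 only. For the other members this rule does not tell whether the libraries overlapped. By the same rule, 0.249% of all 22480 promoters were separated higher and 1.42% lower with DEHP in C57BL/6J. For FVB/N these shares were 0.774% and 0.859%, and 0 of 57 protocadherin probes were shown to be separated. Pcdhb20 rose from 2.1 ± 1.7 to 9.4 ± 3.9 (log2 difference 1.86, SE 0.39, adjusted p = 0.000119, the smallest among the members). Pcdha5 went from 1.7 ± 1.4 to 6.9 ± 2.7 (log2 difference 1.66). Pcdhb14, almost without reads in controls with 0.2 ± 0.5, reached 2.5 ± 1.2 (log2 difference 1.66). Pcdhac1, a C-type isoform of the alpha cluster, increased from 0.9 ± 1.5 to 4.3 ± 1.9 (log2 difference 1.60), and Pcdhb10 from 1.9 ± 2.2 to 7 ± 2.5 (log2 difference 1.58). The other 14 were Pcdha2, Pcdha3, Pcdhb8, Pcdhb11, Pcdhb18, Pcdhb22, Pcdhga3, Pcdhga4, Pcdhga5, Pcdhga6, Pcdhgb2, Pcdhgb6, Pcdhgb7 and Pcdhgb8, with log2 differences of up to 1.56 at Pcdha3.

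Pcdhgc5 moved the other way, from 55.5 ± 22.2 to 19.4 ± 7.3 reads, a log2 difference of -1.35 (SE 0.32, limma adjusted p = 0.000691). With the trend on mean level removed, an alternative added after seeing the data, the difference was -0.39 and no longer passed (adjusted p = 0.565). Between the same groups, the sum of the means over all promoters went from 226268 to 153283 reads while their median went from 5 to 5.3.

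By type of gene, the 19 gamma promoters of A and B type had a median log2 difference of 0.96 in C57BL/6J and 8 of them passed the test. The 5 C-type promoters had a median of 0.12. Among them Pcdhac1 rose and Pcdhgc5 fell, while the values of Pcdhac2 (log2 difference 0.12, SE 0.45), Pcdhgc3 (0.25, SE 0.37) and Pcdhgc4 (-0.05, SE 0.31) did not pass. The 4 genes known to lack the conserved sequence element that CTCF binds at most promoters of these clusters are Pcdhac2, Pcdhb1, Pcdhgc4 and Pcdhgc5, a group put together after its values were seen. Their log2 differences in C57BL/6J were 0.12, -0.01, -0.05 and -1.35, with a median of -0.03. The other 52 probes had a median of 0.90 and 50 of them were above 0. In FVB/N the values of the 4 genes were 0.67, 0.35, -0.21 and -0.59 in the same order, with a median of 0.07 against 0.45 in the other 52. No test was made of these differences. The C-type probes had from 45.5% (Pcdhac1) to 52.4% GC (Pcdhac2), and Pcdhb1 had 44.3%, against a median of 38.5% over the 57 probes. Over all promoters tested in C57BL/6J, the median log2 difference was 0.69 under 40% GC, 0.08 from 40 to 50% and -0.34 above. These groups of genes are thus not matched in GC content, and gene type cannot be told apart from GC content here.

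**Figure D3:**
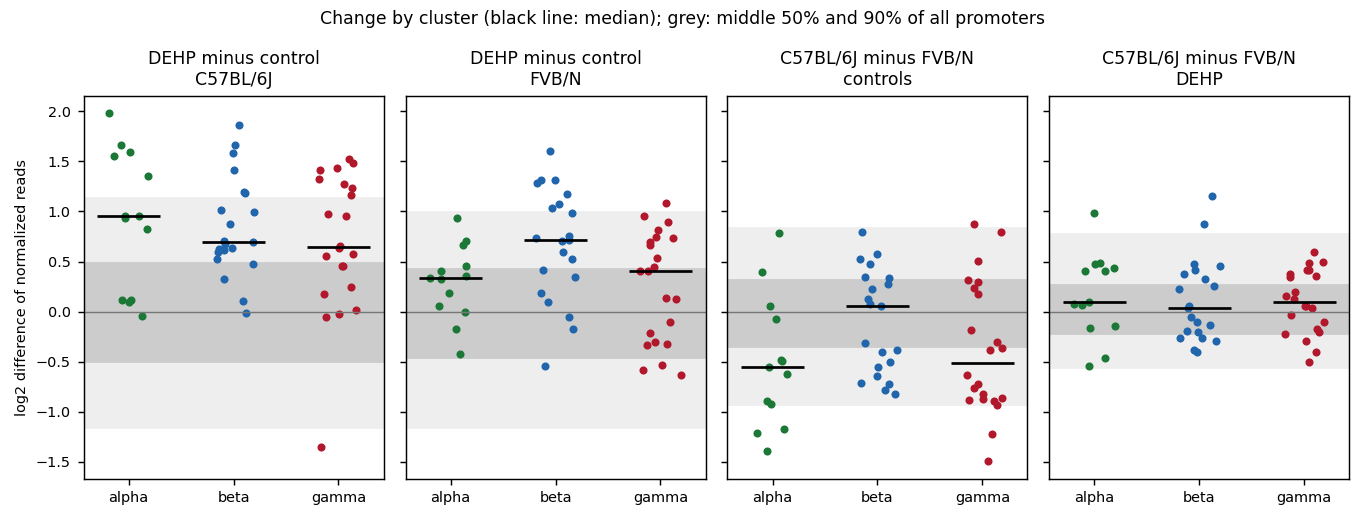
Log2 difference of normalized reads of each tested probe (points) by cluster, with the cluster median as a black line, for DEHP minus control in each strain and for C57BL/6J minus FVB/N in each treatment. Grey bands hold the middle 50% and 90% of all promoters tested. With DEHP in C57BL/6J the 3 medians lie above the dark band, from 0.64 to 0.96, and between strains in DEHP they lie from 0.04 to 0.10.

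The GC content of the probes moved with this result. Of all tested promoters with under 40% GC, 23.1% were called higher with DEHP in C57BL/6J and their median log2 difference was 0.69. Of the 34 protocadherin probes in this range, 12 were called higher and their median was 0.85. Between 40 and 50% GC, 5.28% of all promoters and 8 of 21 protocadherin probes were called higher, with medians of 0.08 and 0.65. Apart from Pcdhac1 with 45.5%, these 8 had only 40.3% (Pcdhga6) to 42.3% (Pcdhgb7) GC. They lie at the low end of the range, so the 2 shares are not matched in GC content. Only Pcdhac2, at 52.4%, had more than 50% GC. With the trend on GC content removed, 5 probes were still called higher (Pcdha11, Pcdhac1, Pcdhb20, Pcdhga3 and Pcdhga6), against 2.73% of all promoters. The median log2 difference was then lower in each cluster, with 0.37 in alpha, 0.21 in beta and 0.26 in gamma. With the trend on mean level removed, 8 were called higher, against 1.31% of all promoters. Both alternatives were chosen after seeing the data. With the trend on CG sites removed, 22 probes were called higher, 19 of them among the 20, against 3.73% of all promoters. Within the 57 probes, GC content and the change in C57BL/6J had a Pearson r of -0.40 and a Spearman rho of -0.27, and in FVB/N an r of -0.24 and a rho of -0.22. Probes called higher had a median GC of 38.1% and the other 37 one of 38.5%. Their median level in C57BL/6J controls, a value that the call itself uses, was 1.65 and 3.8 reads.

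**Figure D4:**
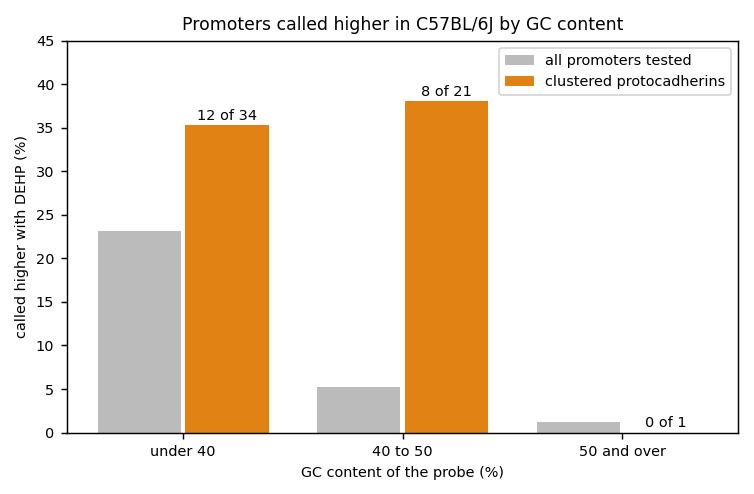
Share of promoters called higher with DEHP in C57BL/6J (in %, bars from 0) by GC content of the probe, for all promoters tested (grey) and for the protocadherin probes (orange, with counts). Both were called in the range under 40% GC, 23.1% of all promoters and 12 of 34 protocadherins. From 40 to 50% GC these were 5.28% and 8 of 21, where most of the 8 lie near 40% GC.

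In FVB/N most log2 differences were again above the median change of all promoters, but only 1 probe passed the test. Reads at Pcdhb20 rose from 2.1 ± 1.9 to 11.2 ± 3.9 (SD, n = 5 each), a log2 difference of 1.61 (SE 0.46, limma adjusted p = 0.0336). No promoter fell (0 of 56 by limma). Over all promoters, 0.613% were called higher and 5.22% lower in this strain. At an unadjusted p under 0.05 by limma, 10 of 56 probes (17.9%) differed, near the 18.3% of all promoters, so the number itself does not set the members apart. All 10 were above 0, and the direction of all promoters at this threshold is not given here. Of the 10 probes, 8 were beta promoters (Pcdhb3, Pcdhb5, Pcdhb6, Pcdhb11, Pcdhb14, Pcdhb17, Pcdhb19 and Pcdhb20). Median log2 difference was 0.34 in alpha, 0.71 in beta and 0.40 in gamma, and 42 of 56 probes were above 0. Under 40% GC, the 34 protocadherin probes had a median of 0.43 and 1 was called higher. All promoters in this range had a median of 0.48 and 3.2% were called higher, so the members did not stand apart there. From 40 to 50% GC, the medians were 0.41 for 21 protocadherin probes and 0.08 for all promoters, without matching in GC content. The call at Pcdhb20 did not hold when the trend on CG sites (log2 difference 1.29, adjusted p = 0.129), GC content (1.11, 0.228) or mean level (1.40, 0.154) was removed. On the deposited scale, without centring on the median, 4 probes were called higher (Pcdhb3, Pcdhb17, Pcdhb19 and Pcdhb20), against 2.68% of all promoters.

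Levels in FVB/N rose from a median of 1.65 to 3.1 reads in alpha, from 1.9 to 6 in beta and from 2.35 to 4.6 in gamma, and the median of all promoters from 3 to 4.9. Pcdhb3 went from 2.8 ± 2.1 to 11.2 ± 4.2, Pcdhb19 from 2.1 ± 2 to 9 ± 2.2 and Pcdhb17 from 1.6 ± 1.4 to 7.2 ± 3.6. Their log2 differences of 1.31, 1.32 and 1.29 did not pass over all promoters, with limma adjusted p from 0.0837 to 0.119. Pcdhb14 went from 0.4 ± 1 to 3.1 ± 1.5 (log2 difference 1.18, adjusted p = 0.175). Pcdhgc5, with 21.2 ± 7.1 and 18.1 ± 4.2, had a log2 difference of -0.59 (SE 0.29, adjusted p = 0.284).

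**Figure D5:**
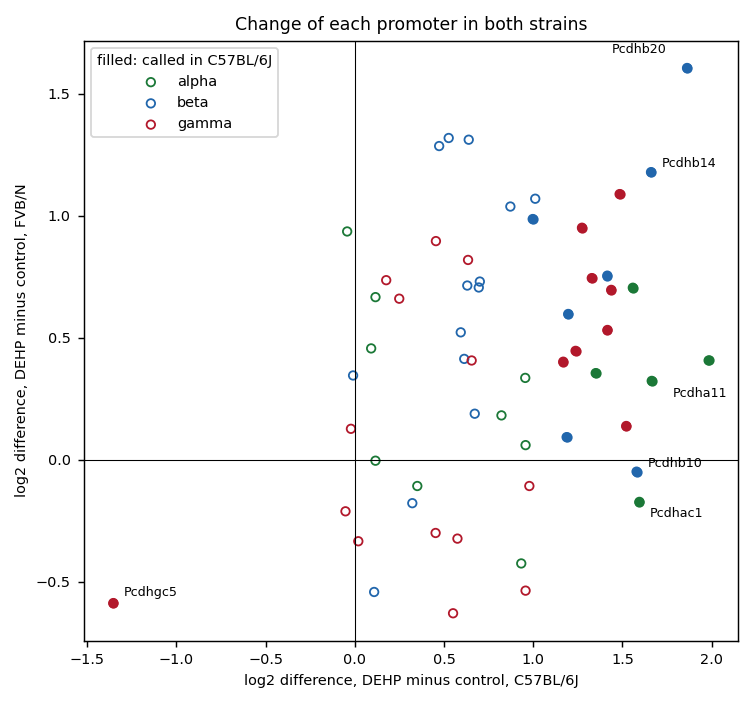
Log2 difference, DEHP minus control, in C57BL/6J (x axis) against FVB/N (y axis) for each of the 57 probes, coloured by cluster, with filled points for those called in C57BL/6J. Most points lie right of 0 and above 0. Pcdhb20 is at the upper right with 1.86 and 1.61, Pcdhgc5 at the far lower left, and Pcdhac1 and Pcdhb10 changed in C57BL/6J with values near 0 in FVB/N.

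Both strains were then set side by side, each against its own controls. Of 56 probes, 39 were above 0 in both strains. Over all 56, the median log2 difference was 0.76 for C57BL/6J and 0.43 for FVB/N. Of the 20 called higher in C57BL/6J, which were chosen on that strain's value, 18 were above 0 in FVB/N, with a median log2 difference of 1.43 for C57BL/6J and 0.56 for FVB/N. Over the 57 probes the changes had a Pearson r of 0.31 and a Spearman rho of 0.25, a description over probes that share libraries and sequence features. Pcdhac1 had a log2 difference of 1.60 for C57BL/6J and -0.17 for FVB/N, and Pcdhb10 of 1.58 and -0.05. Pcdhb20 and Pcdhb14 were high in both, with 1.86 and 1.61, and with 1.66 and 1.18. The difference between strains in response was itself tested as an interaction, and 0 of 56 probes passed (limma adjusted p), with 7 at an unadjusted p under 0.05. Over all promoters, 0% were called higher and 0% lower in the interaction, and 5.7% had an unadjusted p under 0.05. The largest interaction values were 1.80 at Pcdhac1 (SE 0.67, adjusted p = 0.730), 1.66 at Pcdhb10 (SE 0.63, adjusted p = 0.750) and 1.61 at Pcdha11 (SE 0.64, adjusted p = 0.765). Thus a rise in C57BL/6J larger than in FVB/N was not shown for any member by this test.

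Strains were also compared within each submission, where treatment does not differ. In controls, 0 of 56 probes differed between C57BL/6J and FVB/N by limma, with 8 at an unadjusted p under 0.05, against 7.59% of all promoters. Over all promoters, 0.226% were called higher and 0.0706% lower in C57BL/6J. The median log2 difference, C57BL/6J minus FVB/N, was -0.56 in alpha, 0.05 in beta and -0.51 in gamma. On the deposited scale, where the median of all promoters was 0.56, these medians were 0.00, 0.61 and 0.05. Pcdhga11 had the lowest value, -1.50 (SE 0.51, adjusted p = 0.321), with 1.4 ± 1.3 reads for C57BL/6J and 3.6 ± 2.1 for FVB/N. Pcdhgc5 had a log2 difference of 0.79 (SE 0.32, adjusted p = 0.497), and without centring of 1.35, which passed (adjusted p = 0.0190).

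In DEHP sperm the medians were nearer to 0. By limma 0 of 56 probes differed, with 3 at an unadjusted p under 0.05 (Pcdhb10, Pcdha11 and Pcdhb9), a share of 5.36% against 8.54% of all promoters. Over all promoters, 1.14% were called higher and 0.0942% lower in C57BL/6J. Medians were 0.10 in alpha, 0.04 in beta and 0.10 in gamma. Pcdhb10, with 7 ± 2.5 for C57BL/6J and 2.5 ± 1.5 for FVB/N, had a log2 difference of 1.16 (SE 0.36, adjusted p = 0.0840). Sequence variants between the strains were unevenly spread, since the 11 probes from Pcdhb2 to Pcdhb12 each had at least 3 and up to 46 at Pcdhb9, and the other 46 probes had fewer than 3. The median strain difference of these 11 probes was 0.08 in controls and 0.23 in DEHP, compared with -0.53 and 0.07 in the other 46. Over the 57 probes, the number of variants and the strain difference had a Pearson r of 0.21 and a Spearman rho of 0.14 in controls, and 0.23 and 0.15 in DEHP.

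Promoters of genes that act on protocadherin choice were also compared. The list holds CTCF and cohesin genes, DNA methyltransferases, TET enzymes and partners. Of its 19 genes 18 were in the table and 15 were tested, with a median log2 difference of -0.02 for C57BL/6J and -0.47 for FVB/N. In C57BL/6J 2 fell, Dnmt1, the maintenance methyltransferase, from 32.9 ± 13.4 to 13.9 ± 2.9 reads (log2 difference -1.07, limma adjusted p = 0.00645), and Tet1, which oxidizes methylcytosine, from 19.8 ± 8.1 to 8.1 ± 2.4 (-1.08, adjusted p = 0.00734). In FVB/N 2 fell, Tet1 from 23.6 ± 9 to 6.6 ± 2.6 (-2.07, adjusted p = 0.000382) and the cohesin gene Smc3 from 4.3 ± 2 to 1.3 ± 1.1 (-1.58, adjusted p = 0.0384). These 2 of 15 in each strain compare with 12% of all promoters called lower in C57BL/6J and 5.22% in FVB/N. Reads at Dnmt3b were 3.8 ± 2 and 5.4 ± 3.2 in C57BL/6J, and those at Ctcf 2.4 ± 2.6 and 1.7 ± 1.3, neither of which passed.

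Protocadherins outside the clusters gave 0 calls of 8 tested in each strain (limma), with medians of 0.12 for C57BL/6J and -0.18 for FVB/N. The highest among them was Pcdh20 in C57BL/6J, with 1.9 ± 1 and 4.5 ± 0.6 reads (log2 difference 1.04, adjusted p = 0.0730). Among 9 other large cadherins tested, the giant cadherin Fat3 rose in both strains, from 4.7 ± 1.8 to 12 ± 6.4 in C57BL/6J (log2 difference 1.31, adjusted p = 0.00282) and from 2.5 ± 1 to 10.6 ± 2.2 in FVB/N (1.36, adjusted p = 0.0406). Fat2 and Cdh5 (VE-cadherin) fell in C57BL/6J, with log2 differences of -0.98 and -1.20. These calls, 1 higher and 2 lower of 9 in C57BL/6J and 1 higher of 9 in FVB/N, compare with the same shares of all promoters.

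Germ line imprints were looked at as marks of sperm against somatic DNA, as preparations with somatic cells were discarded in the study. H19, methylated in sperm, had 25.3 and 18 reads in C57BL/6J without and with DEHP, and 18.8 and 17.5 in FVB/N. Of the other paternally methylated imprints, Dlk1 and Rasgrf1 had 1.7 to 3.7 reads, but their methylated regions lie away from the promoter. Maternally methylated imprints are unmethylated in sperm. Summed over promoters of 7 such genes, reads were 44, 31.4, 34.3 and 37.3 in the same order, and 0 of the 7 were at 0. Nnat alone gave 26.5, 9.5, 18.1 and 14.6 of these reads. Whether the H19 probe or any of these 7 probes covers its imprinted region was not checked, and the Snrpn probe holds only 15 CG sites. Hence these reads are no measure of somatic DNA. Snrpn moved in the direction of the protocadherins, with 0.5 ± 0.7 and 4 ± 1 in C57BL/6J (log2 difference 1.85, limma adjusted p = 0.00113) and 1.1 ± 1.2 and 4.4 ± 1.2 in FVB/N (0.99, adjusted p = 0.243). Nnat fell in C57BL/6J (log2 difference -1.27, adjusted p = 0.000946), and the other 5 did not pass. The part of somatic DNA in the protocadherin changes was not tested.

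The table also carries expression values of testis cells from an independent dataset, on a scale that is not stated. They covered 22 of the members, 21 beta genes and Pcdhgc4. Their medians ranged from 3.52 in seminiferous tubules to 3.91 in spermatogonia, where all 17133 genes had medians from 5.67 to 5.82. In each of the 6 cell types or tissues 0 of 22 members were above the median of all genes. Pcdhb17 was the highest, with 5.79 in spermatogonia and 5.69 in Sertoli cells, and was low in spermatids with 3.27. Pcdhb20, the promoter called in both strains, came second in spermatogonia with 4.94 and had 3.71 in spermatids.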

How the data were processed

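Sperm DNA of 20 males in 4 groups of 5 was captured with a methyl binding domain and sequenced. Per the labels and the study's methods, Bowtie 0.12.7 placed the pairs on mm10, pairs over promoter probes of 2200 bp were counted, and edgeR normalized them. The deposited signal is each group's mean and SD of these reads. The expression score was added by the authors from another dataset, without a stated scale. The deposited fold changes, p-values and FDR of the authors' own comparisons were not used.

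Groups were taken from the labels. As the table used holds groups only, the count test planned for libraries was replaced by the planned test on means and SDs. Log2(mean + 1) was tested with limma 3.58.1 (R 4.3.3, squeezeVar with the mean log2 level as covariate, variance by the delta method), using the spread of the groups compared, at promoters with a mean of at least 1 over the 4 groups. Differences were centred on the median of all promoters and adjusted by Benjamini-Hochberg over all of them (two-sided, 0.05). Tested on simulated data, the test gave slightly too many small p-values. The precision is that of 5 libraries.

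GRCm38.p6 gave GC content, CG sites and the 51-base sequences (a sample at each 20 bp), and GENCODE the exons, with Python 3.11.15. Of the 57 deposited CG numbers 51 were equal in that assembly and 6 differed by 1. Named were members called in a comparison (over 12 calls, the 6 largest in each direction), the 2 highest and 2 lowest of each cluster, and the C types. Other members named with a count or value, among them Pcdhb3, Pcdhb17, Pcdhb19, Pcdhga11 and Pcdhga12, and the genes without the conserved element, were chosen after their values were seen. Members and lists were chosen with earlier results of these data known. Alternatives were other scalings, pseudocounts of 0.5 and 2, no filter and a mean of at least 3, a pooled spread, a stricter call, separated libraries, and removal of trends by lowess (fraction 0.3) on CG sites, GC content or mean level.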

Additional observations from a re-analysis of the deposited data

How the results depend on the processing

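Counts of protocadherin promoters called with DEHP depended on scaling and call rule. In C57BL/6J, where 20 were called higher and 1 lower, equal sums gave 35 higher, and 20 of the 20 were among them, while the share of all promoters called higher went from 5.66% to 14.9%. The deposited scale gave 16 higher and a pooled spread 14, all among the 20, against 3.86% and 2.91% of all promoters. Removal of the trend on GC content gave 5 and on mean level 8 higher, against 2.73% and 1.31% of all promoters. The latter gave 0 lower, against 1.59%. Bonferroni with a log2 difference over 1 gave 1 higher (Pcdhb20) and 0 lower, against 0.122% and 1.52% of all promoters. Separation of libraries gave 1 (Pcdha11) and 0, against 0.249% and 1.42%. In FVB/N, where 1 was called higher, the deposited scale gave 4, equal sums 3 and a pooled spread 4, with 2.68%, 1.85% and 1.54% of all promoters called higher against 0.613%, while removal of the trends on CG sites, GC content or mean level, the stricter call and separation each gave 0. The deposited scale gave 1 promoter higher in C57BL/6J than in FVB/N in controls, where 0 were called, against 2.44% of all promoters on this scale. A mean of at least 3 left 15 higher in C57BL/6J, 11 of them among the 20, against 7.56% of all promoters. Pseudocounts of 0.5 and 2 kept the same 20, and that of 2 added Pcdhb6, against 5.25% and 5.92% of all promoters. The trends on GC content and mean level were chosen after seeing the data, and the cause of these changes was not tested. Under GC content removal the alpha median in FVB/N was -0.20 instead of 0.34, that of beta 0.23 instead of 0.71, and that of gamma 0.08 instead of 0.40. No setting turned the direction of the 8 called promoters followed singly, where a setting tested them (Pcdha3, Pcdha5, Pcdha11, Pcdhac1, Pcdhb10, Pcdhb14, Pcdhb20 and Pcdhgc5), and the other 13 were followed by counts only. Leaving out a replicate was not run, because only group means and SDs were used. No paired analysis was possible because the labels share no replicate numbers between groups. Low reads limit the precision at many of these promoters, and treatment and submission cannot be told apart under any setting.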
